A study of Homo sapiens with 39 samples.

Results

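GDC-0810 and SAR439859 were compared directly at matched doses and time. Both are described in the labels as selective estrogen receptor degraders. The cells were HCC1428-LTED, a long-term estrogen-deprived derivative of the established breast cancer line HCC1428, grown in IMEM with 5% charcoal-stripped serum. The 12 libraries compared, of 39 in the series, were chosen by label: 3 of GDC-0810 at 30 nM, 3 of GDC-0810 at 300 nM, 3 of SAR439859 at 30 nM and 3 of SAR439859 at 300 nM, all after 24 hours. Beside them stand 6 libraries of GDC-SAR, 3 at each dose, a hybrid that by its label joins the scaffold of GDC-0810 to the side chain of SAR439859, and 3 libraries of the vehicle DMSO. RNA was measured by stranded sequencing, and levels are transcripts per 1000000 (TPM). All groups come from 1 derivative of 1 cell line, and the medium held no added estrogen. The submitters' design text mentions duplicates although 3 libraries a group are labelled, and nothing says that these came from separate cultures, so p-values measure only the spread between these libraries.

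The estrogen receptor, encoded by ESR1, is a ligand-activated transcription factor that drives proliferation of luminal breast cancer cells. Bound to estrogen it recruits coactivators to genes such as PGR and GREB1, and it lowers the expression of others, many of them growth-restraining. Degraders occupy the receptor, block its activation and promote its destruction by the proteasome, and residual induction of its target genes differs from ligand to ligand. Downstream, cyclin D1 and E2F transcription factors license entry into DNA replication.

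A gene was tested when its mean over all 39 libraries was at least 1 TPM, which 14404 of 46706 symbols met. Differences are GDC-0810 minus SAR439859 on the log2(TPM + 1) scale, with dose as a block, and this scale understates the change of low genes. A gene was called at an adjusted p under 0.05 (limma, Benjamini-Hochberg adjustment over all genes tested, two-sided). The libraries listed 15818 to 22850 genes above 0, and 2 of the 30 nM SAR439859 libraries stood apart. In replicate 1 the 10 most abundant genes took 28.2% of TPM, against 34.2% to 39.7% in the other 11 libraries. Replicate 3 listed the fewest genes, had 1340 tested genes at 0, and had a median correlation of 0.895 with the other 11. Counts and calls without both are given beside the results. All 8 luminal markers, including ESR1, GATA3 and the luminal keratins, averaged at least 1 TPM over the 12 libraries, with summed levels of 8790 to 12551 TPM with GDC-0810 and 6588 to 13454 TPM with SAR439859. Only FN1, SNAI1 and ITGA6 of 15 basal and mesenchymal markers in the table reached 1 TPM, as did COL1A1 and CD68 of 20 stromal, endothelial and immune markers. Their sums were 32.8 to 48.8 and 19.9 to 24.8 TPM with GDC-0810, against 38.0 to 52.4 and 15.1 to 28.5 TPM with SAR439859, and LUM was at 0 in all 12. Of the 3 DMSO libraries, 2 share an index sequence with libraries of other treatments and would not have shared a pool with those, whereas the 12 libraries carry 12 different indices. Any part of that in the differences from DMSO was not tested.

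Genes of G1 and DNA replication are among those described below, and 4 of their promoters are shown because E2F factors are known to bind promoters of this kind. They are called genes of the DNA replication and of the G1 and E2F lists, 2 from each. They had the largest differences among those that matched the promoter table and held an E2F-type motif. The stretch is the 250 bases before the RefSeq gene start (build GRCh38.p14), written 5′ to 3′ along the gene. Capitals mark TTTGGCGC or TTTCCCGC, the motifs searched on both strands.
E2F2, chr1:23531234-23531483, minus strand: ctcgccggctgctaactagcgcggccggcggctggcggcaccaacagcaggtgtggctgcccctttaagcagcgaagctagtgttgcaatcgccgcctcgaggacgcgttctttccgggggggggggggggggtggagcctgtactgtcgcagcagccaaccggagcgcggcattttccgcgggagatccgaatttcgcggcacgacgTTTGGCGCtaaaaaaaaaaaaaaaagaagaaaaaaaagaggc
CDC25A, chr3:48188418-48188667, minus strand: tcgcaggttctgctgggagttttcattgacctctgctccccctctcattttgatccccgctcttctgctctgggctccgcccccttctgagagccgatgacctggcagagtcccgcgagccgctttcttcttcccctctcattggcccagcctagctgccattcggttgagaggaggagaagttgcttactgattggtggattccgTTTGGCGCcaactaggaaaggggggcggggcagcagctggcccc
MCM3, chr6:52284743-52284992, minus strand: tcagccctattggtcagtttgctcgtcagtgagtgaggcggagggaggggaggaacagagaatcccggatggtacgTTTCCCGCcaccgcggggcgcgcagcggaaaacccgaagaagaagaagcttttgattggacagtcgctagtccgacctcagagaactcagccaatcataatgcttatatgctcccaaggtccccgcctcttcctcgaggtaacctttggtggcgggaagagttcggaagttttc
MCM6, chr2:135876444-135876693, minus strand: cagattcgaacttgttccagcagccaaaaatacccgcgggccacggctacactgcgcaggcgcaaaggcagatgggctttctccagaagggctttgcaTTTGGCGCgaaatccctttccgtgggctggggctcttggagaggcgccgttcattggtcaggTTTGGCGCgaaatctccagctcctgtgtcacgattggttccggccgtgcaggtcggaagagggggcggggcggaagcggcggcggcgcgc
Among all 35116 promoters of the RefSeq table, 677 (1.93%) held either motif in that stretch. Of the 14404 genes tested, 6495 matched the table, and 216 of these (3.33%) held either motif. In the DNA replication list 16 of 21 genes called higher matched, and 5 of the 16 held a motif. In the G1 and E2F list 5 of 8 matched, and 4 of the 5 held a motif. These matches are too few for a share over the lists to be read. A match describes letters only and is not evidence of binding.

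Between the ligands, 518 genes differed, 3.60% of those tested. With GDC-0810, 259 were higher (1.80%) and 259 lower (1.80%), and the median difference over all genes was -0.04. The large differences leaned to higher levels with GDC-0810, with 94 called genes at least 1 log2 unit higher and 34 at least 1 lower. In 410 of the called genes the 6 and 6 libraries did not overlap, a separation seen in 3.87% of all genes tested. Without the 2 SAR439859 libraries that stood apart, 464 genes were called (3.22%), 293 higher (2.03%) and 171 lower (1.19%), so the higher share was 63.1%. Of these, 348 were also among the 518. All 518 had the same sign, which is favoured because the 2 fits share most libraries. Dividing TPM by median-of-ratios factors, which moved the median difference to 0.01, gave 621 calls (4.31%) with 59.1% of them higher. The higher share was 42.7% of 1331 calls in a fit of all 39 libraries, and 45.9% of 817 calls (5.67%) when GDC-SAR was fitted with both ligands. For 4465 genes (31.0%) the 95% interval of the difference lay within 0.5 log2 units of 0, and for 9422 the data showed neither a call nor such a narrow interval.

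**Figure D1:**
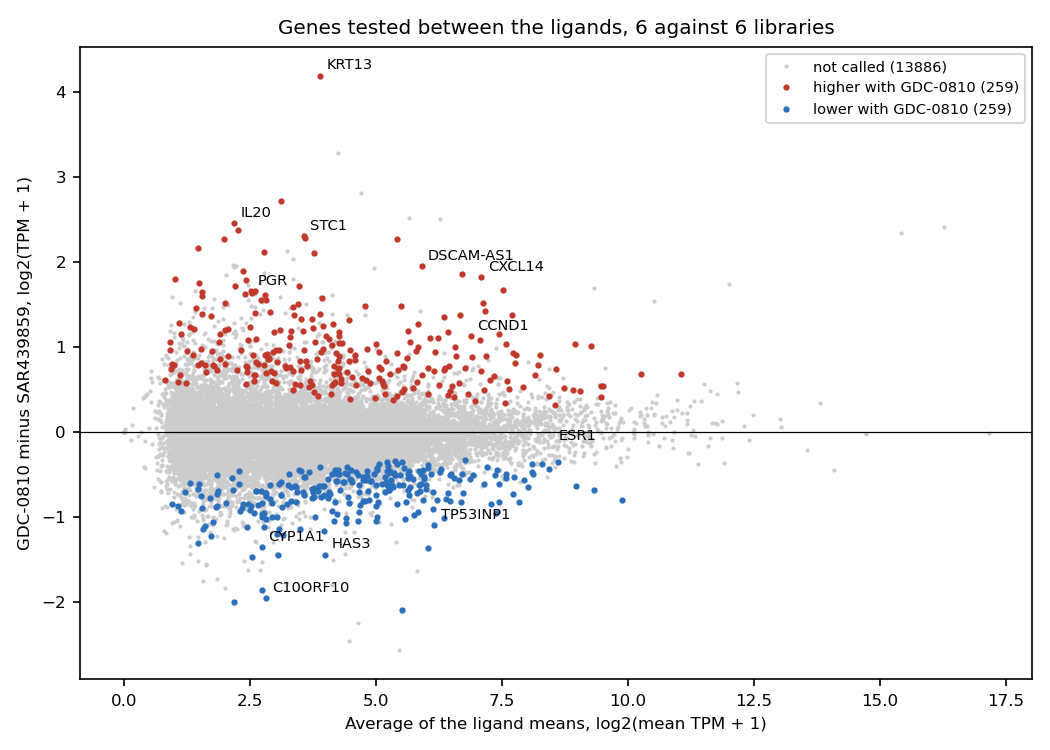
Difference between ligands, GDC-0810 minus SAR439859 in log2(TPM + 1) units (vertical axis), against the average level of each tested gene (horizontal axis, log2 scale). The 259 called genes higher with GDC-0810 reach 4.20 (KRT13), further from 0 than the called genes lower with it, and the remaining genes are in grey.

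Transcripts of the receptor itself were not called between the ligands. ESR1 (chr6:151656691-152129619, GRCh38) had a lowest, median and highest level of 302, 334 and 405 TPM with GDC-0810, against 349, 375 and 425 TPM with SAR439859. The ranges overlap, and the difference was -0.17 (SE 0.0883, 95% interval -0.37 to 0.02, adjusted p = 0.357). DMSO libraries had 409, 459 and 439 TPM. Relative to DMSO the difference was -0.36 with GDC-0810 (adjusted p = 0.0274) and -0.19 with SAR439859 (adjusted p = 0.194). RNA levels say nothing of the receptor protein.

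Listed genes that estrogen induces were mostly higher with GDC-0810. This list, like the others, was chosen with earlier results of these data known, so its count and median only describe it. Of 40 tested members of that list, 22 were higher and 1 lower, with a median difference of 0.77 against -0.04 over all genes. Without the 2 libraries that stood apart the counts were 21 and 1. Over all genes tested, 1.80% were called higher and 1.80% lower, the shares to set beside the count of each list. Relative to DMSO the list's median was -0.65 with GDC-0810 and -1.53 with SAR439859, 2 comparisons that share the DMSO libraries.

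PGR, the progesterone receptor gene (chr11:101029624-101130524), had 8.04, 9.13 and 10 TPM as its lowest, median and highest level with GDC-0810, and 1.49, 1.90 and 4.29 TPM with SAR439859. DMSO libraries had 31.3, 47.0 and 29.2 TPM. The ligands did not overlap, and both lay below every DMSO library. PGR was higher with GDC-0810 by 1.66 (SE 0.170, adjusted p = 3.01e-04). GREB1, a coregulator of the receptor (chr2:11482341-11642788), showed the same order, with 5.49, 7.08 and 8.86 TPM with GDC-0810 against 0.636, 1.12 and 4.37 TPM with SAR439859, a difference of 1.72 (SE 0.244, adjusted p = 0.00229). Its DMSO libraries had 20.7, 20.6 and 17.9 TPM, above every treated library of either ligand. EGR3, a zinc-finger transcription factor gene induced early after estrogen, had 2.35, 5.48 and 6.83 TPM with GDC-0810 and 0, 0.202 and 0.840 TPM with SAR439859. It was higher with GDC-0810 by 2.17 (SE 0.253, adjusted p = 6.91e-04), and it was listed at 0 in both SAR439859 libraries that stood apart.

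IL20 and STC1 had the widest differences in the list. IL20, a cytokine gene (chr1:206865354-206869223), had 6.94, 9.62 and 11.3 TPM with GDC-0810, and 0, 0.597 and 2.64 TPM with SAR439859. Every DMSO library was far above both, at 66.6, 68.5 and 67.4 TPM, and the ligand difference was 2.46 (SE 0.286, adjusted p = 6.73e-04). STC1, encoding the secreted glycoprotein stanniocalcin 1, had the smallest adjusted p of all genes. Its level was 22.2, 24.7 and 31.1 TPM with GDC-0810, against 3.72, 4.29 and 5.24 TPM with SAR439859. The DMSO libraries, at 26.8, 25.9 and 25.1 TPM, fell inside the GDC-0810 range and above every SAR439859 library. STC1 differed by 2.30 between ligands (SE 0.103, adjusted p = 9.61e-07). RAPGEFL1, related to guanine nucleotide exchange factors, differed by 2.27 (SE 0.293, adjusted p = 0.00128).

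Other called members of the list were higher by 0.54 (TFF3, a secreted trefoil peptide) to 1.49 (SLC7A5, a large neutral amino acid transporter). Among them were the receptor tyrosine kinase gene RET at 1.21, the retinoic acid receptor gene RARA at 1.04 and the steroid receptor co-chaperone gene FKBP4 at 1.002. CA12, a membrane carbonic anhydrase gene, was the 1 member lower with GDC-0810, with 130, 170 and 175 TPM against 248, 260 and 327 TPM with SAR439859. Its difference was -0.74 (SE 0.0955, adjusted p = 0.00128), and the DMSO libraries, at 232, 209 and 213 TPM, lay between the ligands.

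Among members not called were TFF1 and MYC. TFF1, a trefoil peptide gene widely used as an estrogen response marker, had 595, 881 and 1041 TPM with GDC-0810, against 477, 557 and 651 TPM with SAR439859. Its ranges overlap, and the difference of 0.55 (SE 0.142, adjusted p = 0.0612) was called under 7 of the other settings tried. MYC had 19.5, 24.7 and 27.5 TPM with GDC-0810, against 15.01, 19.1 and 26.2 TPM with SAR439859, a difference of 0.28 (SE 0.112, adjusted p = 0.227). All treated libraries were below the DMSO libraries for both genes.

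**Figure D2:**
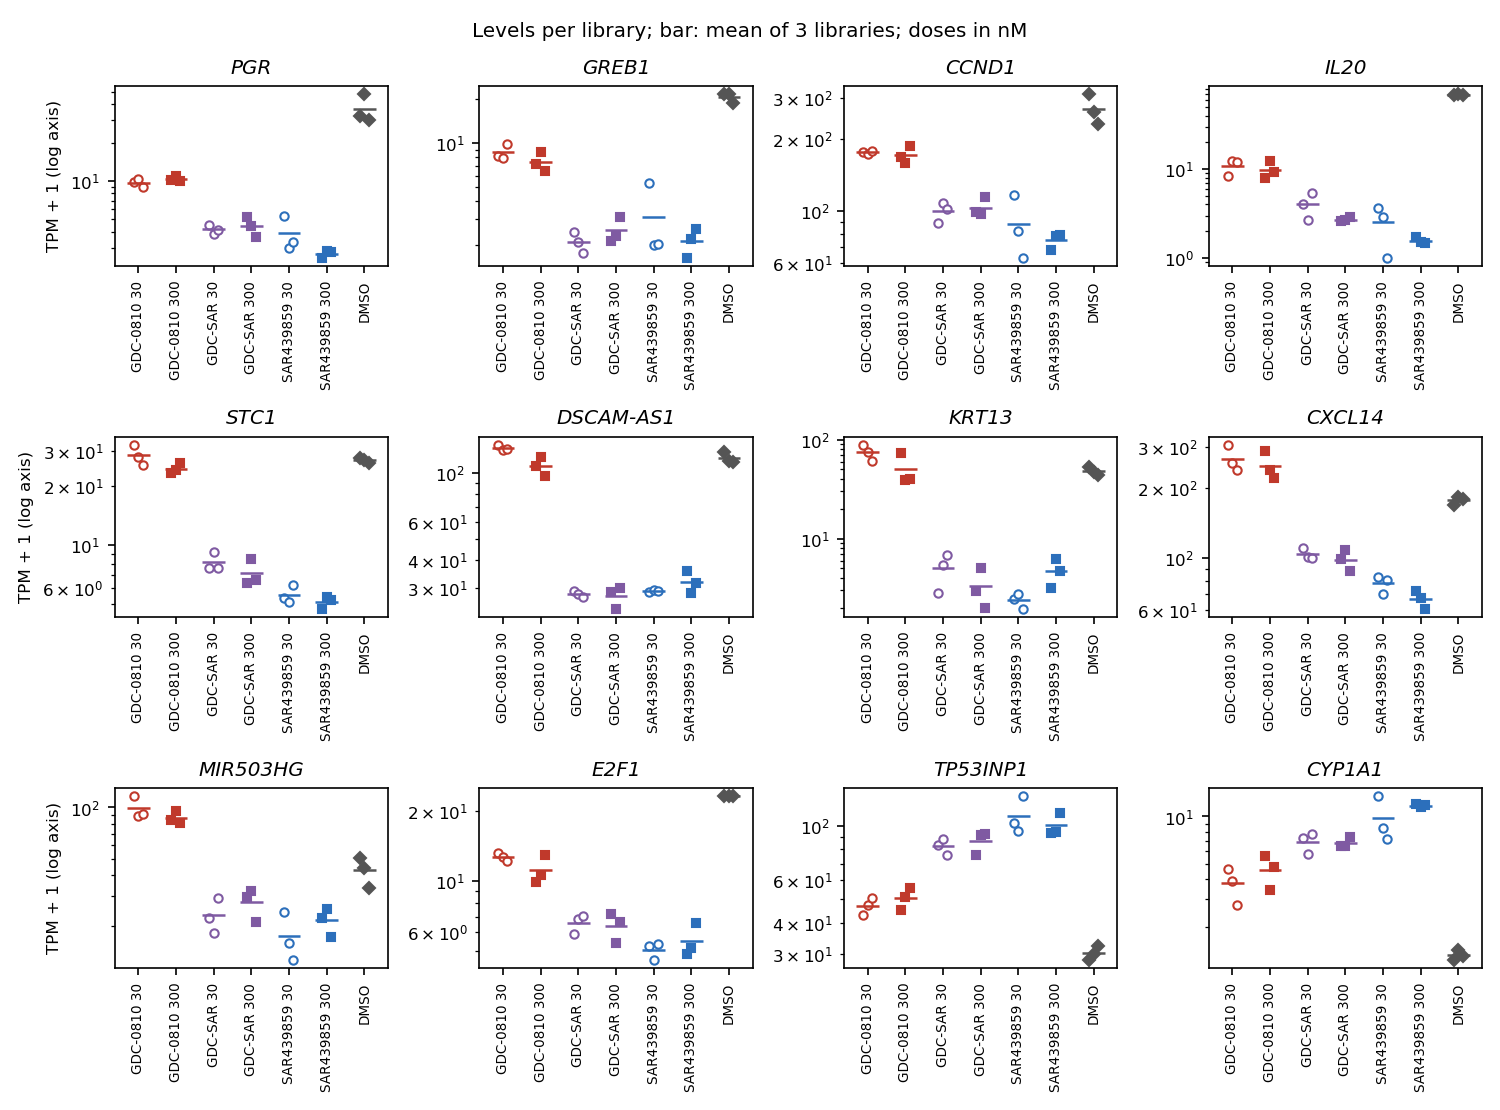
TPM + 1 on a log axis for 12 genes in every library of GDC-0810, GDC-SAR, SAR439859 (30 and 300 nM, open and filled symbols) and DMSO, with bars at group means. STC1 and DSCAM-AS1 with GDC-0810 sit near DMSO and with SAR439859 below it, whereas PGR, GREB1 and IL20 lie below DMSO with both ligands.

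Several genes outside the lists separated the ligands as widely. IL17RB, the interleukin 17 receptor B gene (chr3:53846580-53865800), had 22.3, 26.3 and 27.8 TPM with GDC-0810, against 3.25, 4.39 and 5.75 TPM with SAR439859. The difference was 2.28 (SE 0.132, adjusted p = 4.43e-06), with DMSO libraries at 37.3, 39.7 and 34.5 TPM. NPY1R, a neuropeptide Y receptor gene, differed by 2.12 (SE 0.166, adjusted p = 4.46e-05). WNT4, a secreted Wnt ligand gene that acts downstream of the progesterone receptor in mouse mammary gland, differed by 1.89 (SE 0.128, adjusted p = 1.73e-05). RBM24, an RNA-binding protein gene, differed by 2.10 (SE 0.244, adjusted p = 6.73e-04).

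The long noncoding RNAs DSCAM-AS1, MIR503HG and LINC01016 were among the called genes. DSCAM-AS1 (chr21:40383083-40385358), annotated antisense and known for expression in estrogen receptor-positive breast cancer, had 95.3, 121 and 132 TPM with GDC-0810 and 27.3, 28.1 and 34.9 TPM with SAR439859. DMSO libraries had 123, 112 and 111 TPM, within the GDC-0810 range. The ligands differed by 1.95 (SE 0.0988, adjusted p = 2.02e-06). Libraries were stranded, but whether counting used strand is not given in the sources used here, so reads of an antisense gene and its partner may be mixed. MIR503HG (chrX:134543337-134546632), the host transcript of miR-503, had 80.1, 89.3 and 115 TPM with GDC-0810 and 11.7, 18.9 and 24.3 TPM with SAR439859. Its DMSO libraries, at 49.8, 43.3 and 32.7 TPM, fell between the ligands, and neither ligand overlapped them. The ligand difference was 2.27 (SE 0.173, adjusted p = 3.70e-05). Relative to DMSO it was 1.13 higher with GDC-0810 (adjusted p = 0.00327) and 1.15 lower with SAR439859 (-1.15, adjusted p = 0.00146). LINC01016 differed by 2.37 (SE 0.376, adjusted p = 0.00447), with 7.05, 8.65 and 11.6 TPM with GDC-0810 against 0, 0.820 and 5.01 TPM with SAR439859.

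CXCL14 also lay on opposite sides of DMSO. This chemokine gene had 219, 246 and 304 TPM with GDC-0810 and 59.7, 70.6 and 82.3 TPM with SAR439859, with DMSO libraries at 168, 182 and 178 TPM. No library of one group overlapped another. The ligands differed by 1.83 (SE 0.0962, adjusted p = 2.11e-06), and the differences from DMSO were 0.53 with GDC-0810 (adjusted p = 0.00784) and -1.29 with SAR439859 (adjusted p = 8.29e-06).

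Keratins gave the widest single difference. KRT13, a type I keratin of stratified epithelia (chr17:41500981-41505705), had 38.3, 65.97 and 86.7 TPM as its lowest, median and highest level with GDC-0810. With SAR439859 it had 0.946, 1.96 and 5.16 TPM, and the DMSO libraries had 52.0, 45.6 and 42.7 TPM. It was higher with GDC-0810 by 4.20 (SE 0.306, adjusted p = 2.95e-05). Relative to DMSO the difference was 0.33 with GDC-0810 (adjusted p = 0.398) and -3.87 with SAR439859 (adjusted p = 8.12e-07). Its neighbour in the keratin cluster, KRT15, had 8.17, 20.3 and 27.7 TPM with GDC-0810, against 2.65, 5.29 and 6.61 TPM with SAR439859. KRT15 differed by 1.72 (SE 0.189, adjusted p = 4.82e-04). The luminal keratins moved less. KRT8 was higher with GDC-0810 by 0.68 (SE 0.104, adjusted p = 0.00360) and KRT19 by 0.68 (SE 0.108, adjusted p = 0.00469), 2 of the 23 tested luminal identity genes, none of which was lower. Without the 2 libraries, and likewise with median-of-ratios scaling, 4 were higher and none lower, with XBP1 and KRT18 added. That list's median difference was -0.11, and over all genes tested 1.80% were called higher.

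Genes that estrogen represses ran the other way. Of 23 tested members, 11 were lower with GDC-0810 and 1 higher, with a median difference of -0.70. The member that was higher is KRT13, which fell below DMSO with SAR439859, opposite to the list's name. Without the 2 libraries that stood apart the counts were 10 lower and 1 higher. The list's median relative to DMSO was 0.43 with GDC-0810 and 0.91 with SAR439859.

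TP53INP1, a stress-induced gene that promotes autophagy and cell death (chr8:94925972-94949411), had 42.2, 48.2 and 54.8 TPM with GDC-0810, against 92.7, 97.8 and 131 TPM with SAR439859. Every DMSO library was lower than both, at 27.3, 28.9 and 31.2 TPM. TP53INP1 was lower with GDC-0810 by 1.10 (-1.10, SE 0.105, adjusted p = 2.02e-04). BLNK, a signalling adaptor gene, was also lowest in DMSO, at 9.14, 9.95 and 11.3 TPM. It had 19.5, 24.0 and 27.2 TPM with GDC-0810 and 30.0, 47.0 and 53.3 TPM with SAR439859, a difference of -0.83 (SE 0.163, adjusted p = 0.0164). TGFB3, a transforming growth factor beta ligand gene, differed by -1.02 (SE 0.161, adjusted p = 0.00424). The focal adhesion gene TNS3 differed by -1.05, but its adjusted p of 0.0447 exceeded 0.05 when any 1 of 10 libraries was left out, the highest value over all settings being 0.108.

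Outside the list, C10ORF10 kept its call under every setting tried. It had 1.94, 2.48 and 3.51 TPM with GDC-0810, against 9.69, 11.6 and 21.9 TPM with SAR439859, a difference of -1.96 (SE 0.196, adjusted p = 2.72e-04). DMSO libraries had 0.952, 2.13 and 1.34 TPM. HAS3, a hyaluronan synthase gene (chr16:69105564-69118719), had 6.66, 8.03 and 12.3 TPM with GDC-0810 and 22.1, 23.3 and 30.0 TPM with SAR439859. It differed by -1.45 (SE 0.148, adjusted p = 3.01e-04), and its DMSO libraries had 5.82, 5.73 and 7.06 TPM. SLC22A4, an organic cation transporter gene, differed by -1.48 (SE 0.205, adjusted p = 0.00200). PPFIBP2, a liprin beta gene, differed by -1.37 (SE 0.192, adjusted p = 0.00217), and the ring finger gene RNF39 by -1.12 (SE 0.146, adjusted p = 0.00137). COLCA1, also annotated antisense, differed by -2.01 (SE 0.385, adjusted p = 0.0146), but without the 2 libraries that stood apart its adjusted p was 0.0604.

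Transcripts of G1 and the E2F family were higher with GDC-0810 in 8 of 23 tested members and lower in none, also without the 2 libraries. The list's median difference was 0.11. CCND1, which encodes cyclin D1 (chr11:69641087-69654474), had 158, 174 and 186 TPM with GDC-0810, against 62.2, 77.3 and 116 TPM with SAR439859. Its DMSO libraries, at 309, 260 and 231 TPM, were above both, and the ligand difference was 1.12 (SE 0.127, adjusted p = 5.81e-04). E2F1, an activator of replication genes (chr20:33675683-33686404), had 8.85, 11.4 and 12.2 TPM with GDC-0810 and 3.56, 4.16 and 5.56 TPM with SAR439859. Each DMSO library had 22.1 TPM, and E2F1 differed by 1.18 between ligands (SE 0.128, adjusted p = 4.67e-04).

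E2F2, whose promoter is printed above, had 3.95, 9.0045 and 12.8 TPM with GDC-0810 and 1.19, 1.497 and 3.17 TPM with SAR439859. It differed by 1.78 (SE 0.264, adjusted p = 0.00305). CDC25A, the phosphatase gene that activates cyclin-dependent kinase 2, differed by 1.21 (SE 0.190, adjusted p = 0.00424), a call lost with a pseudocount of 0.1 (adjusted p = 0.0550). The other called members were CCNE2 (cyclin E2), E2F7, E2F8 and RBL1, a pocket protein, at 0.73 to 1.06. Not called were the cyclin-dependent kinase inhibitor genes CDKN1A at 0.10 and CDKN1B at -0.06, and RB1 at -0.08.

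In the DNA replication list 21 of 40 tested members were higher with GDC-0810 and none was lower, with a median difference of 0.70, and 19 were called without the 2 libraries. All 40 differences were above 0, from 0.02 (RRM1) to 1.55 (CDC6). Relative to DMSO the list's median was -0.82 with GDC-0810 and -1.51 with SAR439859. In bulk RNA, fewer cells in S phase and less of these RNAs in each cell cannot be told apart.

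Origin licensing members included ORC6, an origin recognition subunit gene, with 11.2, 16.8 and 19.8 TPM with GDC-0810 and 3.72, 5.33 and 6.93 TPM with SAR439859. It differed by 1.38 (SE 0.183, adjusted p = 0.00145), and the DMSO libraries, at 29.4, 24.4 and 26.7 TPM, were above both. MCM6 and MCM3, helicase subunit genes whose promoters are printed above, differed by 0.94 (SE 0.130, adjusted p = 0.00198) and 0.96 (SE 0.177, adjusted p = 0.0114). MCM6 had 7.67, 10.3 and 11.9 TPM with GDC-0810, against 3.58, 4.84 and 5.24 TPM with SAR439859. MCM3 had 12.2, 15.4 and 18.8 TPM with GDC-0810, against 4.60, 7.44 and 11.5 TPM with SAR439859, so neither gene overlapped. FEN1, the flap endonuclease gene of Okazaki fragment maturation, differed by 1.06 (SE 0.127, adjusted p = 7.84e-04). MCM10, a replication initiation gene, differed by 1.24 (SE 0.244, adjusted p = 0.0168), with 4.13 TPM as the lowest GDC-0810 and 4.70 TPM as the highest SAR439859 level. CDC6, which loads the helicase, had an adjusted p of 0.0304 that exceeded 0.05 when any 1 of 7 libraries was left out, at most 0.0805 over all settings.

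Replication-dependent histone genes, expressed in S phase, were higher with GDC-0810 in 10 of 18 tested members and lower in none, with a median of 0.69, and in 8 without the 2 libraries. HIST1H3B had 97.8, 124 and 161 TPM with GDC-0810, against 40.5, 48.7 and 66.5 TPM with SAR439859, a difference of 1.35 (SE 0.122, adjusted p = 1.38e-04). HIST1H2AM differed by 1.37 (SE 0.196, adjusted p = 0.00247), and HIST1H2AH, which is outside the list, by 1.86 (SE 0.204, adjusted p = 4.82e-04). These genes have near-identical copies among which reads can be split, so single histone values are uncertain.

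Of 40 tested mitotic genes 5 were higher with GDC-0810, beside 1.80% of all genes tested, and none was lower. The list's median was 0.34. The count was 7 without the 2 libraries and 11 with median-of-ratios scaling. MYBL2, a transcription factor gene that is itself an E2F target (chr20:43667019-43716496), had 80.4, 87.0 and 97.0 TPM with GDC-0810 and 31.5, 34.5 and 46.6 TPM with SAR439859. It differed by 1.27 (SE 0.0940, adjusted p = 3.02e-05), and DMSO libraries had 108, 104 and 97.4 TPM. BIRC5, which encodes survivin of the chromosomal passenger complex, differed by 0.47 (SE 0.0807, adjusted p = 0.00769). MKI67, the proliferation marker, had 51.3, 58.8 and 84.1 TPM with GDC-0810, against 35.3, 39.4 and 52.6 TPM with SAR439859. Its difference of 0.54 (SE 0.138, adjusted p = 0.0546) was called under 7 of the other settings tried. SPC25 (adjusted p = 0.0262) and CCNA2 (adjusted p = 0.0331) lost their calls when any 1 of 6 and any 1 of 8 libraries was left out.

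**Figure D3:**
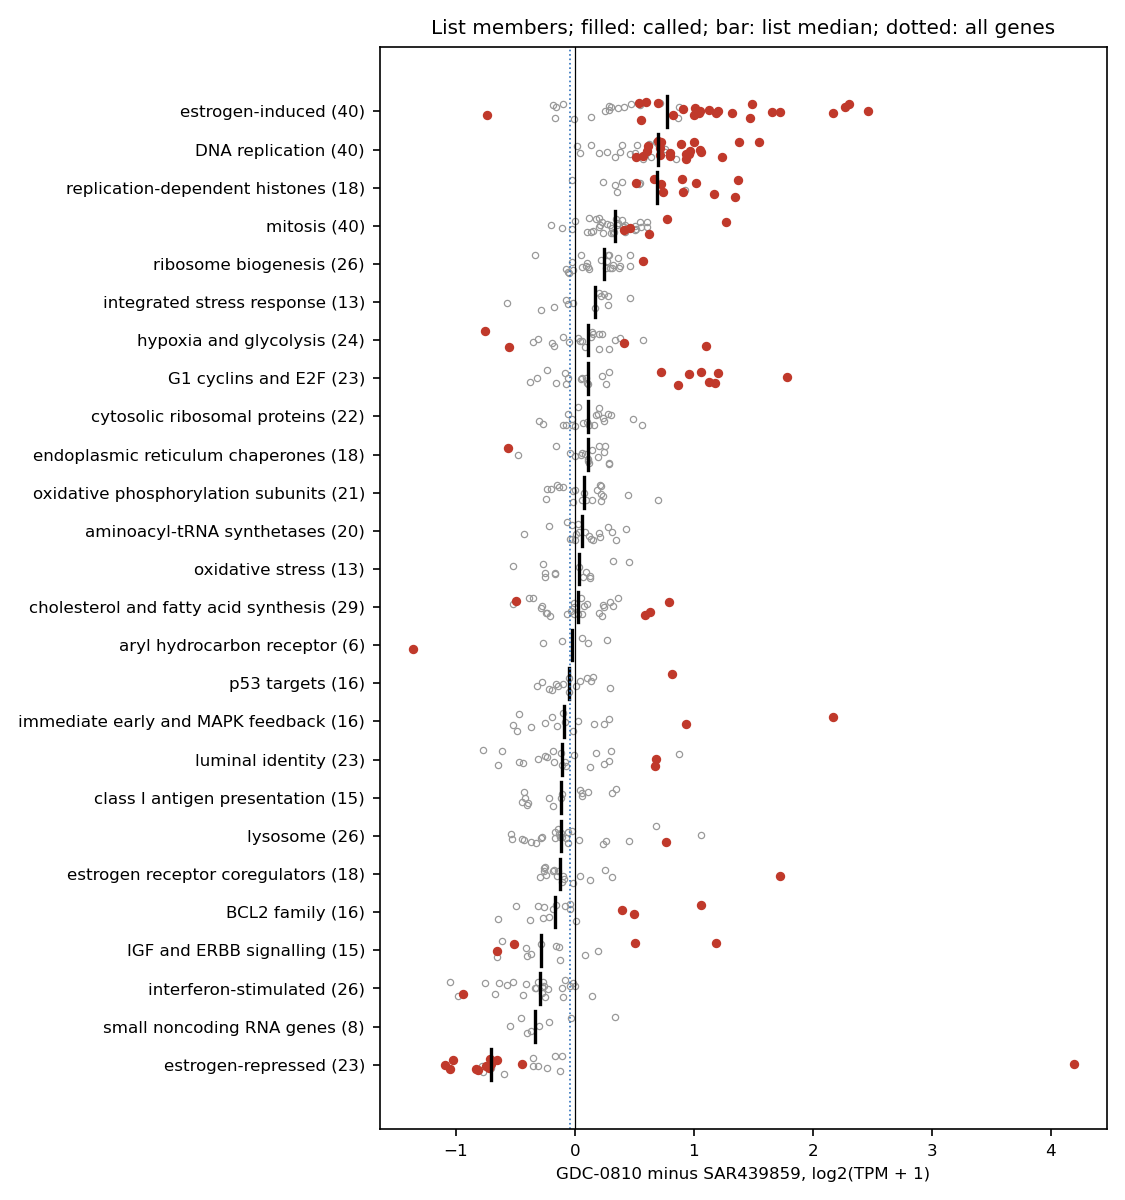
GDC-0810 minus SAR439859 in log2(TPM + 1) units for the tested members of each gene list, numbers of members in brackets, with called genes filled, a bar at the list median and a dotted line at the median of all genes (-0.04). The estrogen-induced (0.77), DNA replication (0.70) and histone (0.69) medians lie furthest right, and that of the estrogen-repressed list (-0.70) furthest left.

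CYP1A1, the cytochrome P450 gene classically induced by the aryl hydrocarbon receptor (chr15:74719542-74725610), was higher than DMSO with both ligands. It had 1.75, 3.27 and 4.58 TPM with GDC-0810, against 6.24, 10.6 and 12.5 TPM with SAR439859, and 0.229, 0.423 and 0.297 TPM in DMSO libraries. The ligands did not overlap, and the difference was -1.36 (SE 0.193, adjusted p = 0.00229). It was the 1 called gene of 6 tested members of the aryl hydrocarbon receptor list, whose median was -0.02. Without the 2 libraries CYP1B1 was called too, at 0.51 (adjusted p = 0.0293), against 0.27 with all 12 (adjusted p = 0.412). Relative to DMSO, CYP1A1 was higher by 1.63 with GDC-0810 (adjusted p = 0.00109) and by 2.99 with SAR439859 (adjusted p = 3.17e-06).

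Growth factor signalling genes moved both ways, with 2 of 15 tested members of the IGF and ERBB list higher and 2 lower. Over all genes tested the called share was 3.60%. IGFBP4, which binds insulin-like growth factors and is estrogen-induced, had 62.0, 72.4 and 83.2 TPM with GDC-0810, against 24.7, 29.7 and 45.0 TPM with SAR439859. It differed by 1.19 (SE 0.134, adjusted p = 5.63e-04). The receptor gene IGF1R was higher by 0.51 (SE 0.0913, adjusted p = 0.00969), or 0.0717 when adjusted over 3 ligand pairs in the fit with GDC-SAR. Lower with GDC-0810 were the receptor kinase genes ERBB2 (-0.66, SE 0.131, adjusted p = 0.0174) and ERBB3 (-0.51, SE 0.126, adjusted p = 0.0488). Neither was called without the 2 libraries that stood apart, with adjusted p of 0.0507 for ERBB2 and 0.104 for ERBB3. ERBB3 also lost its call when any 1 of 10 libraries was left out, and ERBB2 without GDC-0810 30 nM replicate 2.

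In the hypoxia and glycolysis list 4 of 24 tested members were called, 2 higher and 2 lower, beside 3.60% of all genes tested. The counts were 2 higher and 1 lower without the 2 libraries. SLC2A1, the glucose transporter gene (chr1:42925375-42959176), had 83.6, 100.4 and 117 TPM with GDC-0810, against 41.3, 45.5 and 48.8 TPM with SAR439859. Its difference was 1.10 (SE 0.0894, adjusted p = 5.33e-05), and DMSO libraries had 163, 172 and 149 TPM. Without the 2 libraries, adjusted p was 0.119 for LDHA (0.42), 0.0614 for HK2 (-0.75) and 0.0481 for VEGFA (-0.56). LDHA lost its call when any 1 of 10 libraries was left out, and VEGFA when any 1 of 9 was. The gene called higher beside SLC2A1 without the 2 libraries was thus another member of the list. Of 29 cholesterol and fatty acid synthesis genes, 3 were higher and 1 lower. EBP, a sterol isomerase gene, was higher by 0.59 (SE 0.111, adjusted p = 0.0135) and INSIG1, which retains the sterol sensor in the endoplasmic reticulum, lower by 0.49 (-0.49, SE 0.0715, adjusted p = 0.00270). STARD4 at 0.79 and MSMO1 at 0.63 lost the call when any 1 of 6 and any 1 of 11 libraries was left out.

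Other lists had 1 to 3 called members, beside 3.60% of all genes tested. MDM2, a p53 target and p53's ubiquitin ligase, had 222, 272 and 377 TPM with GDC-0810, against 111, 168 and 198 TPM with SAR439859, the 1 called gene of 16 p53 targets. It differed by 0.82 (SE 0.127, adjusted p = 0.00415). IER3, an immediate early gene, had 224, 290 and 344 TPM with GDC-0810 and 130, 149 and 177 TPM with SAR439859, a difference of 0.93 (SE 0.107, adjusted p = 6.41e-04). With EGR3 it made 2 called of 16 tested in its list.

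In the BCL2 family 3 of 16 tested genes were higher, beside 1.80% of all genes tested, and none lower. They were PMAIP1 (1.06), BCL2L12 (0.50) and BCL2 (0.39), and without the 2 libraries adjusted p was 0.0611, 0.0286 and 0.0555. BCL2L12 lost its call when any 1 of 9 libraries was left out. IRF9, part of the interferon-activated transcription complex, was the 1 called of 26 interferon-stimulated genes, at -0.94 (adjusted p = 0.0371, and 0.105 without the 2 libraries), and the list's median was -0.29. Likewise 1 gene was called of 26 ribosome biogenesis genes (PPAN, 0.58), of 18 endoplasmic reticulum chaperone genes (HERPUD1, -0.56), of 26 lysosome genes (CTSC, 0.77) and of 18 estrogen receptor coregulators (GREB1), beside 3.60% of all genes tested. Called as well, and higher, were RRS1 of ribosome biogenesis and XBP1 of the chaperone list without the 2 libraries, and XBP1 and the coregulator PELP1 with scaling. CD68 was called at 0.58 among the 2 tested stromal, endothelial and immune markers. PPAN, HERPUD1, CTSC and CD68 had adjusted p of 0.0913, 0.125, 0.0731 and 0.0545 without the 2 libraries.

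No member was called in the lists of integrated stress response (13 tested), aminoacyl-tRNA synthetase (20), cytosolic ribosomal protein (22), oxidative phosphorylation (21), oxidative stress (13), class I antigen presentation (15), small noncoding RNA (8) and basal and mesenchymal (3) genes. Their medians lay between -0.33 for small noncoding RNA genes and 0.17 for integrated stress response genes. Without the 2 libraries KARS, a lysyl-tRNA synthetase gene, was called higher at 0.48 (adjusted p = 0.0460) and ERAP2, a peptidase gene of class I antigen presentation, lower at -0.78 (adjusted p = 0.0287). With median-of-ratios scaling OSGIN1, of the oxidative stress list, was called higher (adjusted p = 0.0497). Genes called only under such a setting are named after their values were seen.

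At each dose alone the comparison had 3 against 3 libraries and fewer calls. At 30 nM 140 genes differed (0.972%), 82 higher (0.569%) and 58 lower (0.403%) with GDC-0810, and 300 nM gave 66 (0.458%), 55 higher (0.382%) and 11 lower (0.0764%). The 55 genes called at both doses were 39.3% of the 30 nM calls and 83.3% of the 300 nM calls. All 518 genes of the pooled comparison had the same sign at both doses, which calling genes on the pooled difference favours. Without the SAR439859 libraries that stood apart, 43 genes were called at 30 nM, with the 1 library left there assumed to vary like the others.

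No gene (0.00%) passed the limma test of whether the ligand difference depended on dose, with 532 at an unadjusted p under 0.05 and a smallest adjusted p of 0.513. With all 39 libraries setting the spread, 2 passed. The ligand difference in KRT13 was 4.97 at 30 nM (SE 0.305) and 3.43 at 300 nM (SE 0.305), a change of -1.54 (unadjusted p = 0.00467). Its 3 libraries had 86.7, 74.2 and 59.9 TPM at 30 nM and 72.0, 38.3 and 38.5 TPM at 300 nM with GDC-0810, against 1.44, 1.78 and 0.946 TPM at 30 nM and 2.14, 5.16 and 3.72 TPM at 300 nM with SAR439859. For STC1 the differences were 2.36 at 30 nM and 2.25 at 300 nM (SE 0.151 each), and for PGR 1.37 and 1.95 (SE 0.217 each). Among the genes lower with GDC-0810, MBOAT2, a lysophospholipid acyltransferase gene, differed by -0.68 at 30 nM (adjusted p = 0.131) and -1.28 at 300 nM (adjusted p = 0.0154). F7, which encodes coagulation factor VII, differed by -0.95 at 30 nM (adjusted p = 0.0404) and -1.05 at 300 nM (adjusted p = 0.0364). CTD-3236F5.1 was called at 30 nM (2.80, adjusted p = 0.0214) and had a pooled adjusted p of 0.0575. It was listed at 0 in all 3 SAR439859 libraries at 30 nM, which include the 2 that stood apart. Its pooled adjusted p without those 2 was 0.2205. Its difference at 300 nM was 0.67, and the dose dependence was not called.

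**Figure D4:**
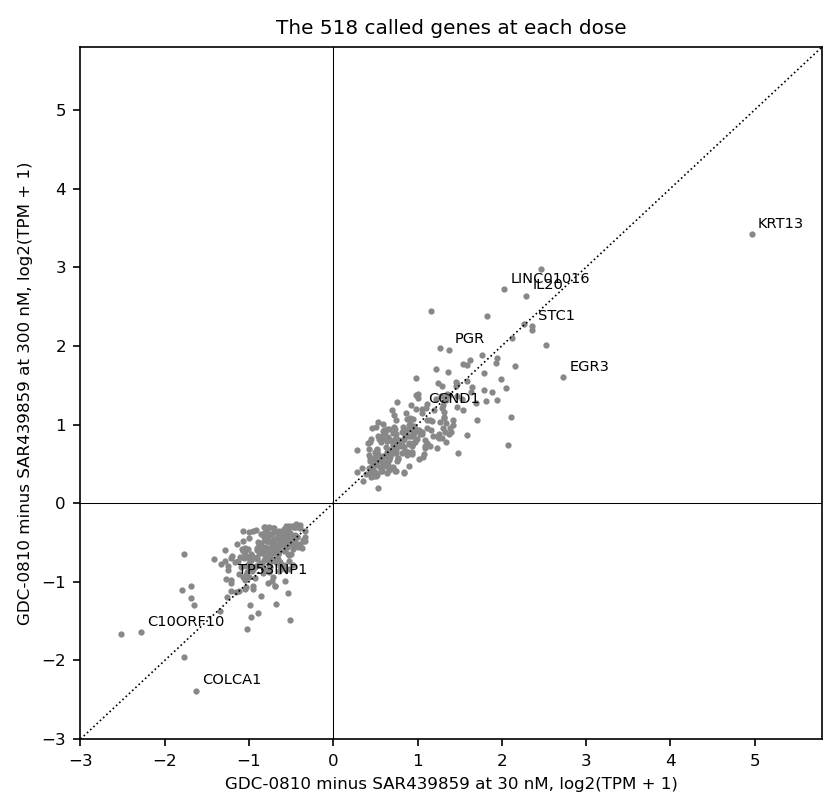
GDC-0810 minus SAR439859 in log2(TPM + 1) units at 30 nM (horizontal axis) and 300 nM (vertical axis) for the 518 genes called with doses pooled, the dotted line marking equal values. All points lie in the lower left or upper right quadrant, which calling genes on the pooled difference favours, and KRT13 (4.97 and 3.43) is furthest out.

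The hybrid GDC-SAR gave pairs that differ in 1 named element, since by its label it shares its scaffold with GDC-0810 and its side chain with SAR439859. The 3 pairs were compared in a fit of 18 libraries. GDC-0810 minus GDC-SAR, a pair that differs in side chain, gave 338 calls (2.35%), 175 higher (1.21%) and 163 lower (1.13%) with GDC-0810. GDC-SAR minus SAR439859, a pair that differs in scaffold, gave 3 (0.0208%), 2 higher (0.0139%) and 1 lower (0.00694%) with GDC-SAR, and 1444 genes at an unadjusted p under 0.05. In the same fit GDC-0810 minus SAR439859 gave 817 calls (5.67%). With p-values adjusted over the 3 pairs together, the counts were 341 for GDC-0810 minus GDC-SAR, 97 for GDC-SAR minus SAR439859 and 627 for GDC-0810 minus SAR439859. The count for the pair differing in scaffold thus depends on how the adjustment is made. For 6152 genes (42.7%) its 95% interval lay within 0.5 log2 units of 0. The pairs share libraries, so their values are set side by side and not correlated. Most genes named below were picked for their difference between GDC-0810 and SAR439859. Libraries of those ligands are reused here, which favours large differences in either pair with GDC-SAR.

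Estrogen-induced genes had a median of 0.59 for GDC-0810 minus GDC-SAR and of 0.20 for GDC-SAR minus SAR439859. For DNA replication genes these medians were 0.53 and 0.19. DSCAM-AS1 averaged 26.9 ± 2.07 TPM with GDC-SAR (SD, n = 6). It differed by 2.08 between GDC-0810 and GDC-SAR (SE 0.0902, adjusted p = 4.75e-10) and by -0.13 between GDC-SAR and SAR439859 (95% interval -0.32 to 0.06). KRT13 averaged 3.18 ± 1.86 TPM with GDC-SAR (SD, n = 6), with differences of 3.96 (SE 0.333) and 0.23 (95% interval -0.47 to 0.94). GREB1 gave 1.81 (SE 0.232) and -0.09 (95% interval -0.58 to 0.40).

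For other genes GDC-SAR lay between both parents. STC1 averaged 6.64 ± 1.07 TPM with GDC-SAR (SD, n = 6). Its differences were 1.79 for GDC-0810 minus GDC-SAR (SE 0.101, adjusted p = 1.71e-08) and 0.51 for GDC-SAR minus SAR439859 (95% interval 0.29 to 0.72, adjusted p = 0.0977). NPY1R averaged 6.03 ± 1.98 TPM with GDC-SAR (SD, n = 6) and differed by 1.03 and 1.08 (95% interval 0.67 to 1.502, adjusted p = 0.0730). CYP1A1 averaged 5.86 ± 0.739 TPM with GDC-SAR (SD, n = 6), with differences of -0.74 (adjusted p = 0.0267) and -0.62 (95% interval -0.98 to -0.25, adjusted p = 0.238).

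The 3 genes called for GDC-SAR minus SAR439859 were MYBL1, TOB1 and MTND4P24. MYBL1, a MYB family transcription factor gene, averaged 15.4 ± 0.972 TPM with GDC-SAR (SD, n = 6) and had 7.02 to 10.9 TPM with SAR439859. It was higher with GDC-SAR by 0.71 (SE 0.0961, adjusted p = 0.00770), and GDC-0810 exceeded GDC-SAR by 0.54 (adjusted p = 0.00429). TOB1, an antiproliferative gene, averaged 1761 ± 90.4 TPM with GDC-SAR (SD, n = 6), against 1126 to 1473 TPM with SAR439859, a difference of 0.47 (SE 0.0735, adjusted p = 0.0289). Between GDC-0810 and SAR439859, TOB1 was not called in the main fit. That difference was 0.31 to 0.41 over the 21 other settings, 7 of which called it. MTND4P24 is annotated as a processed pseudogene of a mitochondrial gene, so reads may come from near-identical copies. It averaged 16.8 ± 3.55 TPM with GDC-SAR (SD, n = 6), against 30.0 to 37.2 TPM with SAR439859, a difference of -0.96 (SE 0.124, adjusted p = 0.00770). GDC-0810, which by label has the same scaffold as GDC-SAR, did not differ from SAR439859 by a call in MTND4P24 under any setting. That difference was -0.25 to -0.14 over the 21 other settings.

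**Figure D5:**
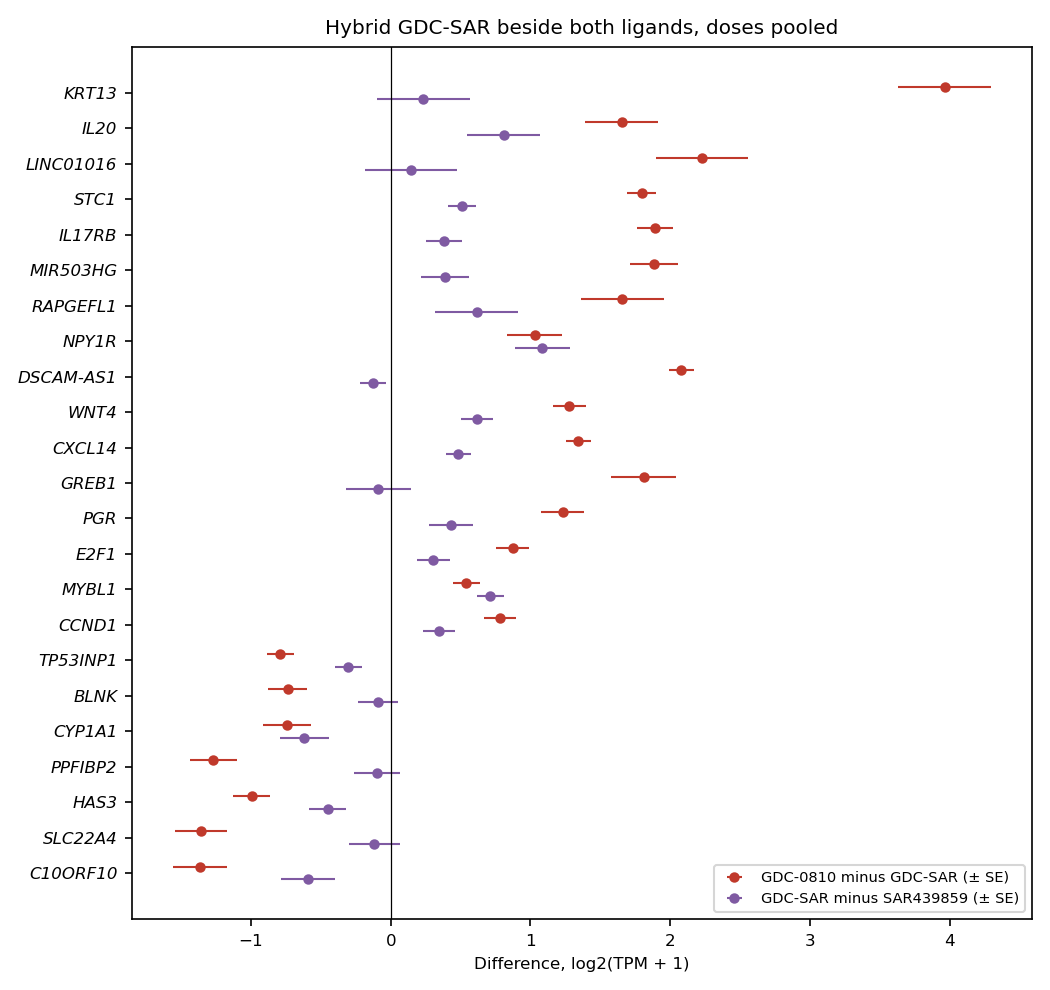
Differences in log2(TPM + 1) units (horizontal axis, bars are ± SE) for 23 genes, doses pooled, in GDC-0810 minus GDC-SAR and GDC-SAR minus SAR439859. DSCAM-AS1 (2.08 and -0.13) and KRT13 (3.96 and 0.23) lie far from 0 in GDC-0810 minus GDC-SAR and near 0 in GDC-SAR minus SAR439859, whereas NPY1R is at 1.03 and 1.08.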

How the data were processed

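RNA extraction included DNase treatment and libraries were stranded (NuGEN), per the labels' protocols. STAR and the build GRCh38 are named in the submitters' processing notes. How reads were counted, with which annotation and versions, is not given in the sources used here. TPM values, 1 per gene symbol and library, were deposited by the authors, and each column sums to 1000000, so depth is unknown and no count test was possible.

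Groups came from the labels. Replicate numbers were given here within each group, in the order of the library numbers in the sample titles, and are not part of the labels. Symbols averaging 1 TPM or more across 39 libraries were fitted as log2(TPM + 1) in limma 3.58.1 (R 4.3.3) with empirical Bayes moderation and an intensity trend. The pooled model was ligand plus dose on 12 libraries. A mean per ligand and dose served the single doses and the interaction, 18 libraries the GDC-SAR pairs, and 15 the differences from DMSO. The fit was run on simulated data with independent normal noise and the same spread in every library. No simulated library stood apart, so that run says nothing of error rates in these data. The comparison, genes and lists were chosen with earlier results of these data known, so lists are described by counts and medians only.

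Named genes were 8 always read, then called genes that averaged 5 TPM or more with either ligand and did not overlap, by size, up to 15 each way (5 per dose), and up to 4 called members of each list each way. MCM3, MCM6 and the genes called for GDC-SAR minus SAR439859 were added after their values were seen, as were list members named with a difference alone. Gene positions come from GENCODE version 29. Alternatives were another pseudocount, no expression filter, a filter on the compared libraries, median-of-ratios scaling, all 39 libraries, library weights, leaving out libraries and adjustment over 3 pairs.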

Additional observations from a re-analysis of the deposited data

How the results depend on the processing

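Of 88 named genes, 81 were called with doses pooled. Of these, 53 were called under all 21 other settings and 28 lost the call under at least 1, 23 of them without a single library. No direction reversed. The cause of each shift below was not tested.

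For the pooled comparison (518 genes) the count was 335 with no expression filter (31089 genes tested), 1331 with all 39 libraries, 948 with library weights and 817 when fitted with GDC-SAR, an alternative chosen after seeing the data. Leaving out 1 library gave 281 to 574. It was 281, 335 and 327 without GDC-0810 30 nM replicates 2, 1 and 3, 328 without GDC-0810 300 nM replicate 2, and 344 and 343 without SAR439859 300 nM replicates 2 and 3. At 30 nM (140) it was 77 with no filter, 887 with all 39 libraries, 785 with weights and 43 without SAR439859 30 nM replicates 1 and 3. Single libraries gave 44 to 189, with 44 without GDC-0810 30 nM replicate 1 or 2 and 58 without replicate 3, 76 without GDC-0810 300 nM replicate 2, 81 without SAR439859 30 nM replicate 3, and 93 and 78 without SAR439859 300 nM replicates 1 and 2. At 300 nM (66) it was 43 with no filter, 117 with scaling, 355 with all 39 libraries and 518 with weights. Single libraries gave 19 to 107. They were 33, 19 and 20 without GDC-0810 300 nM replicates 1, 2 and 3, 36 without GDC-0810 30 nM replicate 2, 22, 24 and 26 without SAR439859 300 nM replicates 1, 2 and 3, and 106 and 107 without SAR439859 30 nM replicates 1 and 3. For dose dependence (0) the count was 2 with all 39 libraries and 0 to 2 without single libraries.

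GDC-0810 minus GDC-SAR (338) gave 530 with all 39 libraries, 846 with weights, 560 without SAR439859 30 nM replicates 1 and 3, and 244 to 456 without single libraries. GDC-SAR minus SAR439859 (3) gave 22 with scaling, 51 with all 39 libraries, 53 with weights, 7 without SAR439859 30 nM replicates 1 and 3, 97 adjusted over the 3 pairs together, and 2 to 21 without single libraries, with 21 without SAR439859 30 nM replicate 1 and 6 without SAR439859 300 nM replicate 1. For these 2 pairs, only scaling and leaving out both SAR439859 libraries were planned.

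The share of calls higher with GDC-0810 at 30 nM was 58.6%, against 72.2% with scaling, 76.7% without SAR439859 30 nM replicates 1 and 3 and 39.01% with all 39 libraries. At 300 nM it was 83.3%, against 73.5% with scaling, 56.9% with all 39 libraries and 55.0% with weights. No paired analysis was possible because the labels give no replicate numbers. Depth is unknown, so levels near 0 cannot be given a detection limit.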

Other observations

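By gene type in GENCODE version 29, 11076 of the tested symbols (76.9%) were protein coding. Of these, 463 differed between GDC-0810 and SAR439859 (4.18%, beside 3.60% of all genes tested), 242 higher and 221 lower with GDC-0810. None of 293 processed pseudogenes was called. Of 126 long intergenic noncoding RNAs, 2 were higher and 4 lower (4.76% called), and of 205 antisense genes, 2 were higher and 3 lower (2.44%). Another 2361 symbols had no single match, with 12 higher and 30 lower (1.78%).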
